A study of Mus musculus with 8 samples.

Results

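The listed CpGs of 5 genes of the DNA methylation machinery, Dnmt1, Dnmt3a, Dnmt3b, Dnmt3l and Uhrf1, were followed in neural precursor cells (NPCs) with and without knockdown of Tet3. A CpG belonged to a gene when it lay between 5 kb upstream of the gene's first transcription start site (TSS) and the end of the gene, in the mouse genome build mm9 with the GENCODE vM1 annotation. This gave 328 of the 757812 CpGs measured in the series, 63 of Dnmt1, 116 of Dnmt3a, 57 of Dnmt3b, 15 of Dnmt3l and 77 of Uhrf1. Of them, 202 lay in a promoter, from 1 kb before to 0.5 kb after the TSS of a protein-coding transcript, 122 in the rest of the gene (its body) and 4 in the upstream flank. Promoter CpGs came from 4 of the genes, since Dnmt3l had no listed CpG in a promoter. The CpGs were taken by position alone.

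The NPCs were derived from A2lox.cre mouse ES cells, in which ES clones carry an shRNA that doxycycline switches on. Controls carried a non-targeting shRNA (shScr) and the others an shRNA against Tet3 (shTet3), a dioxygenase that oxidises 5-methylcytosine (5mC) to 5-hydroxymethylcytosine (5hmC). Both received doxycycline at 2 µg/ml for 5 days. The ES cells had been grown on feeder cells and then on gelatine before differentiation, and the share of feeder DNA left in the NPCs was not measured here. For each shRNA, 2 replicates were measured, each by 2 libraries, making 8 in all. BS and oxBS libraries of the same number and shRNA were taken to come from the same DNA, which their titles do not state. A BS library was treated with bisulphite alone, which leaves 5mC as well as 5hmC as C, whereas an oxBS library was oxidised first, so that its C reads stand for 5mC. The labels do not say whether replicates came from separate clones or cultures, so tests cover the spread between these libraries, which may be technical. A single shRNA against Tet3 was used, and neither the RNA of Tet3 nor the RNA of neural or ES cell marker genes was analysed here, so the cell identity and the knockdown were taken from the labels.

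Each library held from 42516767 to 61865967 methylation calls, and its median coverage was from 43 to 54 calls a CpG. Over all CpGs tested, the mean oxBS level was 27.2% in replicate 1 and 32.3% in replicate 2 of shScr, against 22.7% and 22.9% for shTet3, so that shScr replicate 2 stood above the other libraries. Its part in the results at the 5 genes is given below by leaving it out.

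DNA methylation in mammals is written by a small set of enzymes. Dnmt3a and Dnmt3b methylate new sites, and Dnmt3l, which has no catalytic activity of its own, binds to them and stimulates them. Dnmt1 copies methylation to the new strand after replication, and Uhrf1 recognises hemimethylated CpGs and brings Dnmt1 to them. CpG-dense promoters are typically free of methylation, whereas CpGs in the bodies of transcribed genes are typically methylated.

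The windows below are the stretches of neighbouring CpGs that the results turn on, and they show side by side the dense and unmethylated sequence around the starts and the sparse and methylated sequence elsewhere in the same genes. Each is the forward strand of mm9 from 5′ to 3′, and capitals mark the CpGs tested in the oxBS libraries.
Dnmt1, at the start of the gene, chr9:20756964-20757228: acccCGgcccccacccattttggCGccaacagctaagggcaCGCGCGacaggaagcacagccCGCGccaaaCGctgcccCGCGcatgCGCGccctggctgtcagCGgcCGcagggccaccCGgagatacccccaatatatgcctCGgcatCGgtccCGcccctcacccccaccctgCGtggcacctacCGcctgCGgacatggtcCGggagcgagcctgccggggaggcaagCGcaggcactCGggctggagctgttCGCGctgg
Dnmt1, body, coding exon and intron, chr9:20728567-20728781: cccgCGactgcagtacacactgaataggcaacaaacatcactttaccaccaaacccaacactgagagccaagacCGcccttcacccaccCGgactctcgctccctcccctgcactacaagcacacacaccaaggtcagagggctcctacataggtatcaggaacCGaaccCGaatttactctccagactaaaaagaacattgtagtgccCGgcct
Uhrf1, intron in the promoter, chr17:56443442-56443735: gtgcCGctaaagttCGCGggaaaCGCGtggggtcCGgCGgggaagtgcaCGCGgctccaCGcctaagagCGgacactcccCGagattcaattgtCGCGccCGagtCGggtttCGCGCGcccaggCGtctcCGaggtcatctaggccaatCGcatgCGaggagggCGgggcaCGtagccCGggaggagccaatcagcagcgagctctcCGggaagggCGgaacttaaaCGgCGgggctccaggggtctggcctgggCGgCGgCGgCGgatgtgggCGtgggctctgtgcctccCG
Uhrf1, body, coding exon and exon of a non-coding transcript, chr17:56457498-56457621: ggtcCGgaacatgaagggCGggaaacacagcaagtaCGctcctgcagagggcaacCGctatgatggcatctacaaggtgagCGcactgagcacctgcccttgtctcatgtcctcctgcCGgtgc
Uhrf1, upstream flank, chr17:56439755-56439974: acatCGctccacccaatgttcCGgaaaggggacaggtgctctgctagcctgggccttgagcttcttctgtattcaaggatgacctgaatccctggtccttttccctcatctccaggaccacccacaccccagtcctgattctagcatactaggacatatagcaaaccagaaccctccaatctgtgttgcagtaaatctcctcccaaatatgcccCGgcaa
Dnmt3a, intron near the start, chr12:3807783-3807854: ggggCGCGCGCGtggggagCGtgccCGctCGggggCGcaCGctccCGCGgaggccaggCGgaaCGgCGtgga
Dnmt3a, later intron, chr12:3871811-3871923: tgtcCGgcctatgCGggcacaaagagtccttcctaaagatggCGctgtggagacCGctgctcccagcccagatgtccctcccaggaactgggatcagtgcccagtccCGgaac
Dnmt3l, body, coding exon and intron, chr10:77520032-77520183: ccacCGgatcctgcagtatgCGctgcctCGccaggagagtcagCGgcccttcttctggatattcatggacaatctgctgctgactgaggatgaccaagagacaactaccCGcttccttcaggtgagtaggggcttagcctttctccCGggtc

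The difference in density is visible in these windows. The Uhrf1 promoter window holds 37 CpGs in 294 bases, with 36 of them tested, and the Uhrf1 body window holds 6 CpGs in 124 bases. The mean shScr oxBS level was 0.0188% over the first and 96.5% over the second. The Dnmt1 start window holds 28 CpGs in 265 bases and had a mean shScr level of 0.0646%, against 8 CpGs in 215 bases and 86.0% in the Dnmt1 body window. In Dnmt3a, 14 CpGs in 72 bases of an intron near the start were all read as unmethylated in both shScr oxBS libraries, while 5 CpGs in 113 bases of a later intron averaged 64.7%.

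The same division held over the 290 CpGs with a coverage of 10 or more in the 4 oxBS libraries. Of these, 207 had a mean shScr oxBS level under 10%, and around each of them, in 202 bases, lay a median of 22 CpGs (5 to 38). A further 76 had a level over 40%, with a median of 5.5 CpGs (1 to 11) in the same length. The remaining 7 CpGs had levels between 10 and 40%. The plot of level against density shows these 2 groups, with the CpGs of an intronic block of Dnmt3l between them. Reduced representation libraries are made from MspI fragments, so the CpGs seen lie mostly near CCGG sites, and this division describes those CpGs and not the whole genes.

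**Figure D1:**
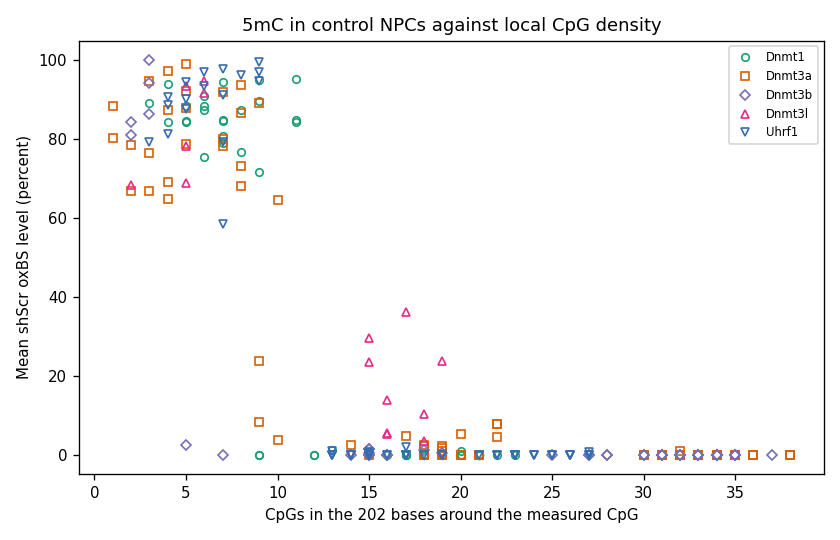
Mean oxBS level in the 2 shScr libraries (percent of calls read as C) of each tested CpG against the number of CpGs in the 202 bases around it, by gene. The 76 CpGs over 40% have at most 11 CpGs around them, and the points between 10 and 40% belong mostly to Dnmt3l.

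The first question was whether the starts of these genes gained or lost 5mC when Tet3 was knocked down. The starts at the 5′ ends of Dnmt1, Dnmt3a, Dnmt3b and Uhrf1 were near 0% in every library. At Dnmt1, the maintenance enzyme (chr9:20711650-20757317, minus strand), the mean oxBS level of 30 promoter CpGs was 0.0351% and 0.135% for shScr replicates 1 and 2, against 0.0433% and 0.189% for shTet3. At Dnmt3b, a de novo enzyme (chr2:153475186-153513466, plus strand), 46 promoter CpGs, which also lie in the overlapping gene 7530422B04Rik, had 0.0948% and 0.229% for shScr, against 0.100% and 0.0982% for shTet3. At Uhrf1, the partner of Dnmt1 (chr17:56442744-56462909, plus strand), 60 promoter CpGs had 0.0866% and 0.0587% for shScr, against 0.0439% and 0.0693% for shTet3. In all 3 genes the replicates of the shRNAs overlapped.

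Summed over the 4 oxBS libraries, 10 of 8875 calls were methylated at the Dnmt1 promoter (0.113%, 95% Wilson interval 0.0612 to 0.207), 20 of 10659 at that of Dnmt3b (0.188%, 0.122 to 0.290) and 17 of 24126 at that of Uhrf1 (0.0705%, 0.0440 to 0.113). The highest level of any single CpG was 2.70%, 5.00% and 3.85%, respectively. Among the promoters of 11930 protein-coding genes with 5 or more tested CpGs, the median shScr level was 0.398%, and 18.8%, 32.9% and 15.9% of genes had a lower level than Dnmt1, Dnmt3b and Uhrf1. The intervals cover counting error only.

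Dnmt3a, the other de novo enzyme (chr12:3806007-3914443, plus strand), has several annotated starts. The cluster of starts at the 5′ end held 37 tested CpGs, with mean oxBS levels of 0% and 0.0483% for shScr, against 0% and 0.0848% for shTet3. The start inside the gene that gives its short isoform had 2 tested CpGs, with mean levels of 1.28% and 10.7% for shScr, against 0% and 7.33% for shTet3, so that replicates of one shRNA differed more than the shRNAs did. Methylated promoter CpGs were found only at 2 further internal starts of annotated transcripts. There, 7 CpGs had mean levels of 84.2% and 97.5% for shScr, against 78.9% and 81.6% for shTet3, and 2 CpGs had 76.6% and 94.5% for shScr, against 75.4% and 85.5% for shTet3. These 9 CpGs raise the mean of all Dnmt3a promoter CpGs to 17.1% for shScr and 15.2% for shTet3.

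No promoter CpG of the 4 genes was called in either direction in the oxBS libraries, out of 184 tested. A CpG was called when a logistic regression of its methylated and unmethylated calls, with a likelihood ratio test adjusted over all CpGs, gave q below 0.01 and the difference of pooled levels exceeded 10 percentage points. By this rule 2.00% of all promoter CpGs were called lower in shTet3, as were 13.9% of all CpGs, and 0.0814% of all CpGs were called higher. A CpG near 0% in shScr cannot fall by over 10 points. Among the 184, only the methylated CpGs at internal starts of Dnmt3a could therefore be called lower. Of all promoter CpGs, 28.6% of those over 40% in shScr BS were called lower, against 0.132% of those of 0 to 10%. Just past the unmethylated start of Dnmt3a, 26 tested intronic CpGs at chr12:3807787-3808235 had mean levels of 1.58% and 1.60% for shScr, against 1.93% and 3.31% for shTet3. No CpG of this stretch was called.

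**Figure D2:**
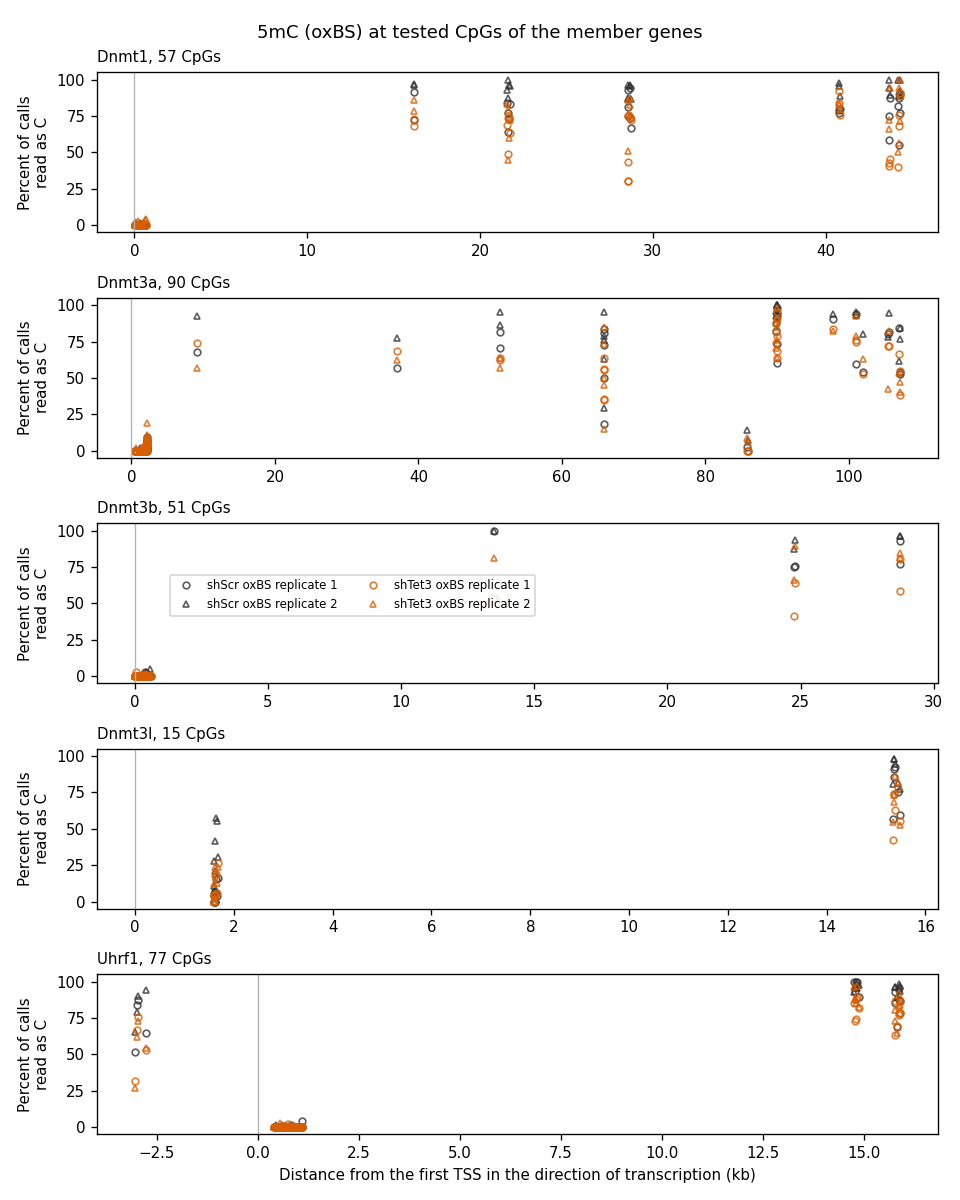
Percent of calls read as C at each tested CpG in the 4 oxBS libraries against the distance from the gene's first TSS in kb, one panel per gene, with shScr in dark grey and shTet3 in orange and circles and triangles for replicates 1 and 2. CpGs near the starts of Dnmt1, Dnmt3a, Dnmt3b and Uhrf1 lie near 0% in all libraries, and the CpGs further along lie mostly between 50 and 100%, with shTet3 below shScr at most of them.

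The bodies of the genes were methylated, and part of their CpGs had less 5mC in shTet3. Of 102 body CpGs, 23 fell (22.5%), against 23.0% of all body CpGs in the series. All 4 flank CpGs of Uhrf1 fell as well, against 17.4% of all flank CpGs, so that 27 of 290 member CpGs fell (9.31%). The share of 17.4% covers flank CpGs of every level, whereas these 4 are neighbours that were all over 40% in shScr BS. Of all CpGs over 40% in shScr BS, 36.3% fell. Here and below, a CpG fell or rose when it was called by the rule above. None rose. Without regard to calls, 7 body CpGs of Dnmt3a had both shTet3 replicates above both shScr replicates, all in the stretch of low levels just past its start. They are 21.9% of the 32 member body CpGs of 0 to 10% in shScr BS, against 4.59% of all such body CpGs. These 7 are neighbours within the same stretch and may not be separate cases, so the shares cannot show an excess, and their difference was not tested. In the BS libraries, 3 of 49 tested body CpGs of Dnmt3a lay above in this way, and 14 lay below. These BS counts cover the whole body, with the methylated CpGs further on. Over 26 CpGs of the stretch itself, mean BS levels were 1.87% and 1.90% for shScr, against 2.59% and 2.28% for shTet3. At 23 of the 27 CpGs that fell, the shTet3 replicates were both lower than either shScr replicate. These CpGs were called from the same libraries, so this is not separate support for the calls. Among member CpGs over 40% in shScr BS, called or not, the share was 51.3%, against 59.4% of all such CpGs.

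**Figure D3:**
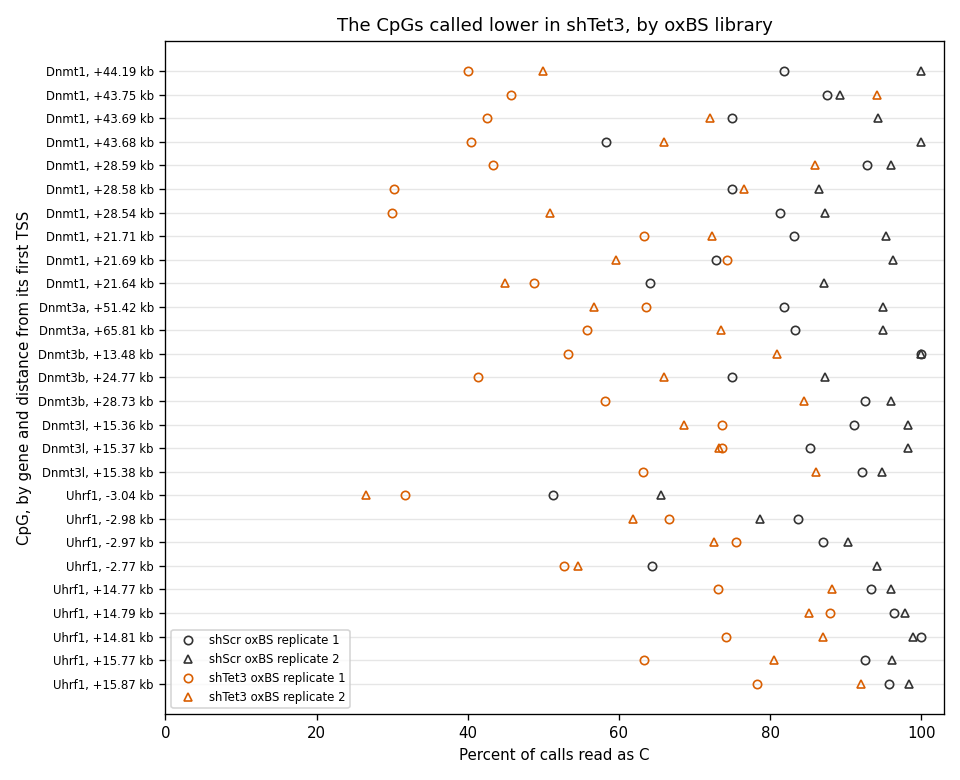
Percent of calls read as C in the 4 oxBS libraries at the 27 CpGs called lower in shTet3, named by gene and distance from its first TSS. In 23 rows both orange shTet3 points lie to the left of both dark grey shScr points, and in several Dnmt1 rows the 2 shTet3 replicates are far apart. The CpGs were called from these same libraries, which favours rows with the groups apart.

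In Dnmt1, 10 of 27 body CpGs fell. The mean body level was 69.5% and 83.4% for shScr replicates 1 and 2, against 56.9% and 67.5% for shTet3, a difference of -14.2 percentage points. Both shTet3 values lay below both shScr values, as in 73.6% of all gene bodies with 5 or more tested CpGs. The gap between the nearest pair was smaller than the distance between replicates. Among the stretches of 5 or more tested CpGs, the one with the lowest difference was the body window printed above, with 6 tested CpGs at 80.6% and 91.4% for shScr, against 53.9% and 76.6% for shTet3. Its last CpG, at position 20728776, had 81.4% and 87.2% for shScr, against 30.0% and 50.8% for shTet3, a pooled difference of -42.5 percentage points (q = 6.08e-09). The CpG of Dnmt1 with the largest pooled difference lay in a coding exon at position 20713124. Its levels were 81.8% of 11 calls and 100% of 10 calls in shScr, and 40% of 15 calls and 50.0% of 32 calls in shTet3 (q = 0.00266). The Wilson intervals at this coverage were wide, from 52.3 to 94.9% in shScr replicate 1 and from 19.8 to 64.3% in shTet3 replicate 1. At a shorter stretch of 3 exonic CpGs, chr9:20713567-20713641, the difference was lower still (-23.9 points), but the shTet3 replicates stood far apart, with means of 42.9% and 77.4%, against 73.6% and 94.5% in shScr.

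In Uhrf1, 5 of 13 body CpGs and all 4 flank CpGs fell. The body had the highest shScr mean of the 5 genes, with replicates at 90.3% and 95.8% that overlapped those of Dnmt3b. In shTet3 it had 79.4% and 84.6%, a difference of -11.1 percentage points. Both shTet3 values lay below both shScr values, as in 73.6% of all gene bodies with 5 or more tested CpGs. Of the 9276 genes with 5 or more tested body CpGs, 99.4% had a lower shScr level than Uhrf1. Repeats were not annotated, so it was not examined how many of the 13 CpGs lie in repeated sequence. The flank CpGs, at -3039 to -2775 bases from the first start, had mean levels of 71.6% and 82.2% for shScr, against 56.6% and 53.9% for shTet3, a difference of -21.6 percentage points. The largest change among them was at position 56439705, which also lies in the neighbouring gene Arrdc5, with 51.2% and 65.6% for shScr, against 31.7% and 26.6% for shTet3 (pooled difference -30.0 points, q = 7.5e-06). In the body, the largest was at position 56458517 in an intron, with 92.6% and 96.2% for shScr, against 63.3% and 80.5% for shTet3 (pooled difference -24.0 points, q = 0.0018).

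In Dnmt3b, 5 of the 11 body CpGs listed reached the coverage minimum, and 3 of these fell. The mean level was 84.0% and 94.5% for shScr, against 59.4% and 80.3% for shTet3, a difference of -19.4 percentage points. The lowest shScr value and the highest shTet3 value were close together. The CpG at position 153488665 in an intron was read as methylated in all 18 and 17 calls of the shScr replicates and in 53.3% of 30 calls and 81.0% of 21 calls of the shTet3 replicates (pooled difference -35.3 points, q = 6.07e-05).

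In Dnmt3a, 2 of 42 body CpGs fell. The body mean mixes the unmethylated stretch past the start with methylated CpGs further on, and was 26.7% and 31.1% for shScr, against 23.9% and 23.9% for shTet3, a difference of -4.95 percentage points. With every call given the same weight instead of every CpG, the difference was 1.05 points. The 16 body CpGs beyond that stretch had 67.4% and 78.9% for shScr, against 59.5% and 57.5% for shTet3, a difference of -14.7 points. The CpG with the largest pooled difference, at position 3857430 in an intron, had 81.8% and 95% for shScr, against 63.6% and 56.8% for shTet3 (-29.5 points, q = 0.00754). The later intron printed above had 61.0% and 68.4% for shScr, against 48.9% and 53.7% for shTet3.

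Dnmt3l (chr10:77504692-77526367, plus strand) had 2 groups of CpGs, and 3 of its 15 CpGs fell, all in the coding exon printed above. The 6 CpGs of that stretch had mean levels of 76.7% and 88.5% for shScr, against 64.4% and 69.6% for shTet3, a difference of -15.6 percentage points. The CpG at position 77520052 had 91.2% and 98.3% for shScr, against 73.7% and 68.6% for shTet3 (pooled difference -22.9 points, q = 5.09e-06). The other 9 CpGs, at chr10:77506286-77506359, lie in an intron of Dnmt3l, and 8 of them lie inside the gene Aire on the opposite strand. The block thus crosses an edge of Aire, and its class as body refers to Dnmt3l alone. Whether it lies in a promoter of Aire was not examined. Here the shScr replicates differed from each other more than from shTet3, with mean oxBS levels of 5.01% and 28.6% for shScr, against 9.59% and 10.3% for shTet3. The BS libraries of the same numbers differed in the same direction, with 11.5% and 23.9% for shScr, against 8.91% and 12.5% for shTet3. No CpG of this block was called in the oxBS libraries. Because of it, the mean body level of Dnmt3l, 33.7% and 52.6% in shScr against 31.5% and 34.0% in shTet3, overlapped between the shRNAs.

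**Figure D4:**
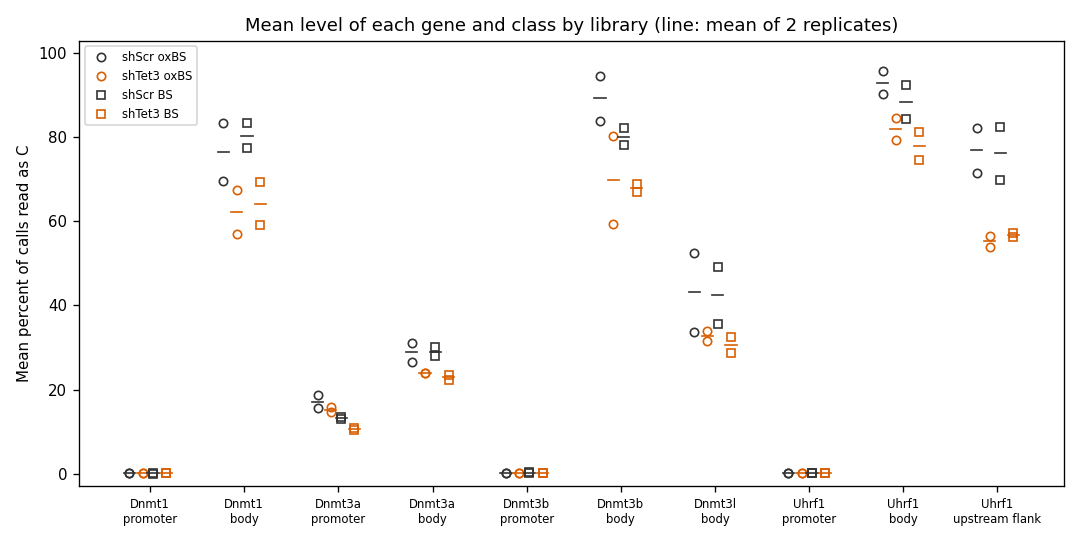
Mean percent of calls read as C over the tested CpGs of each gene and class, one point per library (circles oxBS, squares BS, dark grey shScr, orange shTet3) with a line at the mean of the 2 replicates. The promoters of Dnmt1, Dnmt3b and Uhrf1 lie near 0% in all libraries, and shTet3 lies below shScr in the oxBS bodies of Dnmt1, Dnmt3a, Dnmt3b and Uhrf1.

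An exact two-sided permutation test of 2 libraries against 2 cannot give a p below 0.33, and the body means of Dnmt1, Dnmt3a, Dnmt3b and Uhrf1 and the Uhrf1 flank reached this value. In 73.6% of 9276 gene bodies both shTet3 replicates were lower than either shScr replicate, so this is common in the series. Dnmt3l reached 0.67. A limma test over the mean body levels of 9276 genes gave adjusted p = 0.196 for Uhrf1 and for Dnmt3b, 0.225 for Dnmt1, 0.359 for Dnmt3l and 0.465 for Dnmt3a. It called no gene lower in shTet3 (0%), and none of 11930 promoter means (0%), whereas 2349 body means and 940 promoter means had an unadjusted p under 0.05. The per-CpG calls above come from a test that treats calls as independent and takes no account of the spread between replicates. With that spread included, an F test and limma called no CpG of the 5 genes, and none of the 662455 CpGs tested in the series (0%). Of the 290, 0 had an unadjusted p under 0.05 and a level lower by more than 10 points in shTet3 by the F test, against 1.95% of all CpGs. By limma 20 did (6.90%), against 10.3% of all CpGs, and none of the 290 was higher in this way by either test.

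The counts also rested on single libraries. Without shTet3 replicate 1, 5 of the 23 body CpGs remained called, without shScr replicate 2, 8 remained, and without either of the other libraries, 18 remained. Of the 4 Uhrf1 flank CpGs, between 0 and 2 remained when a library was left out. The mean differences kept their sign when any library was left out, from -21.2 to -7.31 points for the Dnmt1 body, from -29.8 to -8.95 for Dnmt3b, from -13.8 to -8.33 for Uhrf1, from -7.16 to -2.75 for Dnmt3a, from -19.8 to -0.916 for Dnmt3l and from -26.9 to -16.3 for the Uhrf1 flank.

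The next question was whether the change at these genes differed from that of other CpGs that start at the same level. The values are given side by side, as a description. To keep the starting level apart from the oxBS values compared, CpGs were placed by their mean BS level in shScr. Among the CpGs over 40%, 27 of 78 member CpGs fell (34.6%), against 36.3% of all such CpGs, with a median oxBS difference of -13.3 points against -16.6. The shTet3 replicates were both lower than either shScr replicate at 40 of the 78 (51.3%), against 59.4% of all. Among the CpGs of 0 to 10%, 0 of 206 member CpGs fell, against 0.184% of all, but a fall of over 10 points is hardly possible at this level. When each CpG over 40% was set beside all CpGs within the same 5 points of BS level, 33 of the 78 lay below the median difference, 3 below the 5th percentile and 2 above the 95th. By gene, the share that fell among those over 40% was 10 of 24 for Dnmt1, 2 of 25 for Dnmt3a, 3 of 5 for Dnmt3b, 3 of 7 for Dnmt3l and 9 of 17 for Uhrf1. The median number of calls behind a CpG, summed over the 4 libraries, was 202 for all CpGs over 40%. By gene it was 188.5 for Dnmt1, 143 for Dnmt3a, 187 for Dnmt3b, 287 for Dnmt3l and 253 for Uhrf1. The median differences were -13.5, -13.1, -22.9, -18.3 and -11.9 points in the same order. Whether the share that fell depends on the number of calls was not tested.

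**Figure D5:**
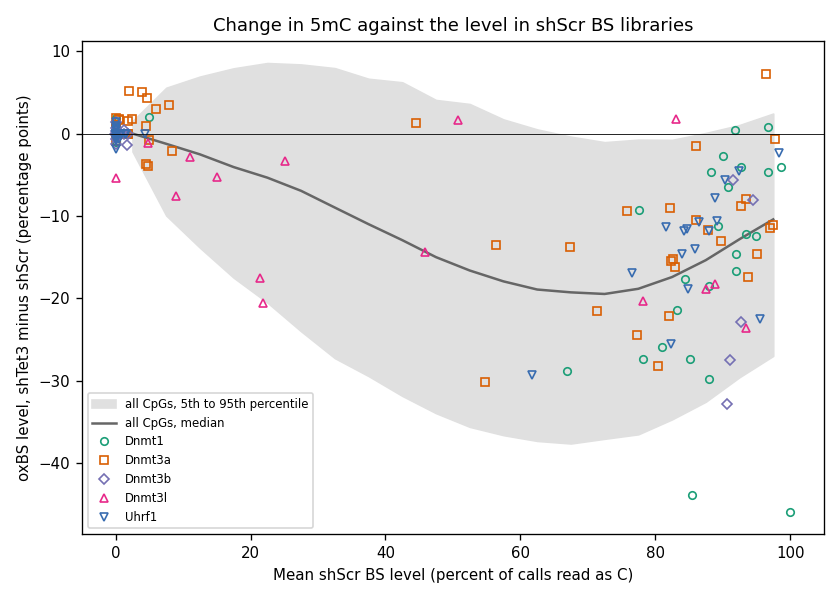
Difference of mean oxBS level, shTet3 minus shScr in percentage points, against the mean shScr BS level of each CpG in percent, for the member CpGs by gene, with the median (line) and the 5th to 95th percentiles (grey) of all CpGs in steps of 5 points. Of the 78 member CpGs over 40%, 33 lie below the median of all CpGs and 3 below the grey band.

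Among all genes with 5 or more tested body CpGs, the median body difference was -12.0 points (5th to 95th percentile -23.0 to 0), and 95% of genes had a lower mean in shTet3. The member bodies lay inside this range, with 14.2% of genes more negative than Dnmt3b, 38.6% more negative than Dnmt1, 54.8% than Uhrf1, 58.1% than Dnmt3l and 77.8% than Dnmt3a.

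The BS libraries, which read 5mC and 5hmC together, were tested in the same way. Of 319 member CpGs tested there, 34 fell (10.7%), against 13.8% of all CpGs, and none rose, against 0.0621% of all. They were 28 of 114 body CpGs, against 23.5% of all body CpGs, 2 of the 4 flank CpGs, against 17.8%, and 4 of 201 promoter CpGs, against 1.86%. The 4 promoter CpGs were all at the internal methylated starts of Dnmt3a. Dnmt3a had 11 CpGs that fell in BS and 2 in oxBS, and Dnmt3b had 0 in BS and 3 in oxBS. Both kinds of library called 14 CpGs, which is 51.9% of the 27 called in oxBS and 43.8% of the 32 called in BS that were also tested in oxBS. At all 27 CpGs called in oxBS, the mean BS level was lower in shTet3 too. The BS libraries were taken to share their DNA with the oxBS libraries, so they are not an independent check. All 27 were over 40% in shScr BS, and of all such CpGs, called or not, 94.1% had a lower mean oxBS level in shTet3. The mean BS level of the Dnmt1 body was 77.5% and 83.3% for shScr, against 59.1% and 69.4% for shTet3, and that of the Uhrf1 body was 84.5% and 92.5% for shScr, against 74.7% and 81.3% for shTet3.

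The difference between BS and oxBS is the measure of 5hmC, and it took both signs at these genes. In shScr, 2 of 289 member CpGs had BS above oxBS by the same rule (0.692%), against 0.33% of all CpGs, and 1 had BS below oxBS, which 5hmC cannot give, against 0.17% of all. In shTet3, none was called in either direction, against 0.0239% of all CpGs above and 0.0141% below. The 2 CpGs above were in introns of Dnmt3a and Dnmt3l. At position 3842990 of Dnmt3a, the shScr BS levels were 92.2% and 80.0% and the oxBS levels 56.6% and 77.1%, a pooled difference of 22 points (q = 0.00232). At position 77506359 of Dnmt3l, in the block with uneven shScr replicates, they were 50.0% and 51.6% in BS and 16.0% and 30.8% in oxBS, a pooled difference of 30.9 points (q = 0.00492). The CpG below was at position 56457553 of Uhrf1, with 76.8% and 92.9% in BS and 100% and 98.9% in oxBS.

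Averaged over the CpGs covered in all 8 libraries, BS minus oxBS in shScr was 5.62 and -0.715 points for the Dnmt1 body in replicates 1 and 2, 2.59 and -0.237 for Dnmt3a, 3.81 and 1.85 for Dnmt3b, 2.02 and -3.40 for Dnmt3l and -5.86 and -3.21 for Uhrf1. At the unmethylated promoters of Dnmt1, Dnmt3b and Uhrf1 it lay between -0.0403 and 0.186 points. In shTet3 the values were -0.687 and -0.706 for the Dnmt1 body, -0.856 and 0.647 for Dnmt3a, 19.2 and 1.05 for Dnmt3b, -2.76 and -1.52 for Dnmt3l and -4.68 and -3.32 for Uhrf1. At the Dnmt3b body BS lay above oxBS in all 4 pairs, with 1 value far from the other 3. At the Uhrf1 body BS lay below oxBS in all 4 pairs, a direction that 5hmC cannot give. Between shTet3 and shScr, BS minus oxBS did not overlap at the promoter of Dnmt1, over the promoters of Dnmt3a together, at the last internal start of Dnmt3a and at the exon and intron stretch of Dnmt3l. Each of these had an exact two-sided permutation p of 0.33, the smallest that 2 pairs against 2 can give, so such separation is common without any difference. At the bodies of the 5 genes the values overlapped. How many other genes of the series show such separation was not computed. At the Dnmt1 promoter the values were near 0, at -0.0351 and -0.0374 points for shScr, against -0.00745 and 0.0146 for shTet3. At that start of Dnmt3a, with 2 CpGs, the shScr values were 15.9 and 3.21 points, against -20.3 and -3.63 for shTet3. The stretch of Dnmt3l, with 6 CpGs, had -4.70 and -1.40 points for shScr, against -5.89 and -7.15 for shTet3. The values below 0 at this stretch and at that start of Dnmt3a are in a direction that 5hmC cannot give.

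The genes that work with these enzymes were described in the same way. A list of 26 genes was used, which held cofactors of Dnmt1 and Uhrf1 such as Hells and Usp7 and readers of methylated CpGs such as Mbd2 and Zbtb38. It also held other genes of the Mbd family and the demethylation genes Tet1, Tet2, Tet3 and Tdg. In 20 of the 26 genes body CpGs were tested, and 79 of 431 fell (18.3%, against 23.0% of all body CpGs) and 0 rose. In 23 of the 26 genes promoter CpGs were tested, and 18 of 733 fell (2.46%, against 2.00% of all promoter CpGs) and 0 rose. Of the 22 genes with 5 or more tested promoter CpGs, 17 had a mean shScr level under 10% and 5 had one between 10 and 40%. Of the 16 with 5 or more tested body CpGs, 11 had a level over 40%, 2 one between 10 and 40% and 3 one under 10%, so that some genes lacked the division between start and body. Mbd3, a methyl-CpG binding domain gene, had 20.7% at its promoter and 0.136% in its body. All 16 bodies had a lower mean level in shTet3, against 95% of all gene bodies, with a median difference of -8.35 points, against -12.0. In 11 of the 16 each shTet3 replicate was lower than either shScr replicate, as in 73.6% of all gene bodies. The 16 include bodies near 0%, such as Trim28 and Mbd3, with differences of -0.09 and -0.06 points. Tet3 itself had 14 of 62 body CpGs that fell, with a mean of 82.1% and 89.8% for shScr, against 71.0% and 77.6% for shTet3, and none of 13 promoter CpGs, with levels of 1.14% and 1.29% for shScr, against 0.917% and 1.26% for shTet3. Zbtb38, a reader of methylated DNA, had the most promoter CpGs that fell, with 8 of 48, and mean levels of 14.3% and 15.4% for shScr, against 9.97% and 9.85% for shTet3.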

How the data were processed

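The files hold oxRRBS data of 8 libraries, with 2 replicates each of shScr BS, shScr oxBS, shTet3 BS and shTet3 oxBS, grouped by their labels. According to the methods, the authors trimmed reads with Trim Galore, aligned them to mm9 with Bismark and formatted calls for methylKit. The authors deposited, for each CpG, how many calls covered it (a raw count, not normalized) and what percent of them were C or T. All files list the same CpGs, with a coverage of at least 5. Methylated counts were recovered from percent and coverage, and all 328 member positions were the C of a CpG in the mm9 sequence.

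A CpG was tested when each of the 4 libraries compared covered it by 10 or more calls, and tests ran over the whole table. The class of a member CpG was set relative to its own gene. For shares over all CpGs, a promoter of any protein-coding gene came before a body, and a body before a flank. A member CpG near another gene can therefore have another class there. The test was a logistic likelihood ratio test without overdispersion, as in methylKit. Its p-values were adjusted here by Benjamini-Hochberg. The methods do not state which adjustment the authors used, so q here may differ from theirs. Gene means were unweighted over CpGs and compared by exact permutation. limma 3.58.1 was used on log2 ratios, with 1 added to both counts, or with 1 point added to both percents for gene means. The tests were checked on simulated data drawn without any spread between replicates, so this check does not cover such spread. PCR copies could not be told from separate molecules, so intervals (95%, Wilson) and tests on calls cover counting error only.

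The members and the gene list were chosen with earlier results of these data known. Named in the text were all 5 genes, the called CpG with the largest pooled difference of each gene and class, stretches of 5 or more tested CpGs at most 200 bases apart with the lowest or highest difference or the highest shScr level, and promoters with 3 or more CpGs. Other CpGs and stretches named, among them the 2-CpG starts of Dnmt3a, and the genes with values from the list of 26 were chosen after their values were seen. Same-numbered BS and oxBS libraries of one shRNA were taken to share their DNA, and their replicate differences correlated over CpGs (r = 0.508 in shScr, 0.246 in shTet3).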

Additional observations from a re-analysis of the deposited data

Results flagged for a closer look

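At the last internal start of Dnmt3a, with 2 CpGs, BS minus oxBS was above 0 in both shScr replicates (15.9 and 3.21 points) and below 0 in both shTet3 replicates (-20.3 and -3.63 points), a difference of -21.5 points between the shRNAs. It stands here because every pair of one shRNA lay on one side of 0 and every pair of the other on the opposite side. An exact two-sided permutation test gave p = 0.33, the smallest value that 2 pairs against 2 allow, so the difference was in effect not tested. How often other starts of the series show the same pattern was not computed.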

How the results depend on the processing

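Of 206 values recomputed under another setting, apart from leaving out a replicate and the limma test added after seeing the data, 166 stayed within 1 replicate SD of the reported mean or within 1.5 times the reported count. The others follow, and their cause was not tested. For counts of CpGs lower in shTet3, the F test and limma gave 0 in bodies and 0 in the Uhrf1 flank. In the flank, Fisher's exact test gave 2 and the BS libraries 2. In promoters, where 0 were reported, a coverage minimum of 20 gave 1, promoters of all annotated transcripts 3 and the BS libraries 4. The F test gave 0 for BS above and 0 for BS below oxBS in shScr.

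For mean oxBS differences in percentage points, read weighting gave -8.42 for Dnmt3a promoters, 1.05 for the Dnmt3a body, which turned its sign, -0.152 for the Dnmt3b promoter and 0.0330 for the Uhrf1 promoter. A coverage minimum of 20 gave -0.848 for the Dnmt3a body. Promoters from -2 kb to +1 kb gave -9.77 for the Dnmt3a body and 0.147 for the Dnmt1 promoter, and promoters of all annotated transcripts gave -1.0 for Uhrf1. For BS differences, read weighting gave -6.93 for Dnmt3a promoters, -2.76 for the Dnmt3a body and 0.0458 for the Uhrf1 promoter, and a minimum of 20 gave -3.78 and -10.0007 for the Dnmt3a promoters and body.

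For BS minus oxBS in shScr, read weighting gave -0.0762 for the Dnmt1 promoter, -1.84 for Dnmt3a promoters, 4.16 for the Dnmt3a body and 6.76 for the Dnmt3l body, and a minimum of 20 gave -0.0713 for the Dnmt1 promoter, 3.74 for the Dnmt3a body and 5.89 for the Dnmt3b body. In shTet3, read weighting gave 0.0346 for the Dnmt1 promoter, -0.954 for its body, 0.638 for the Dnmt3a body, 7.06 for the Dnmt3l body, 0.0193 for the Uhrf1 promoter and -2.85 for its body, and a minimum of 20 gave -1.43 for the Dnmt1 body, 0.269 for the Dnmt3a body and 0.0358 for the Uhrf1 promoter.

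Leaving out 1 library moved the count of CpGs lower in shTet3 from 5 (without shTet3 replicate 1) to 25 in bodies, from 0 to 2 in the Uhrf1 flank and from 0 to 2 in promoters. In shScr it moved BS above oxBS from 0 to 3 CpGs and BS below from 0 to 1. With the replicate number as a block, 22 body and 4 flank CpGs were lower in shTet3. The block of same-numbered BS and oxBS libraries gave 3 CpGs above and 1 below in shScr. Blocking changed no other count. The labels tie shScr and shTet3 libraries of one number by nothing else, and their replicate differences did not correlate over CpGs (r = -0.0361). With 2 replicates, coverage limits single CpGs, and 38 of the 328 CpGs were not tested in oxBS.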
